A study of Mus musculus with 2 samples.

Results

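The insulin-like growth factor (IGF) system was examined in 2 cell populations sorted from the mouse otocyst, through the 10 genes Igf1, Igf2, Igf1r, Igf2r, Insr, Igfbp2, Igfbp3, Igfbp4, Igfbp5 and Igfbp7. A member gene was read through every probe set that names it alone in the platform's annotation, and all 10 were found. They are represented by 30 of the 45101 probe sets on the array and are 10 of the 18194 genes named. The otocyst is the epithelial vesicle that forms the inner ear. Both populations came from embryos at E10.5 that carried the transgene Tg(ETAR-EGFP)14Imeg in the heterozygous state. One population was EGFP-positive and the other EGFP-negative, sorted by fluorescence after dissociation with 0.25% trypsin. Per the labels, EGFP lies mainly in the ventral and dorsomedial wall and is missing from the dorsolateral wall. All embryos were of that 1 transgenic line, and the sources used here do not state how many were pooled. Each population was measured on 1 array, so no difference has a replicate check, there are no p-values, and the statements hold for these 2 libraries alone.

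IGF1 and IGF2 are secreted growth factors that act through the tyrosine kinase receptor IGF1R, and in part through the insulin receptor, to drive growth, proliferation and survival by the PI3K-AKT and RAS-MAPK routes. IGF2R has no kinase and removes IGF2 to the lysosome, while IGF binding proteins hold the ligands outside the cell and release them when proteases cut them. In the chick otic vesicle IGF1 sustains proliferation and survival of neural precursors, and mice without Igf1 have impaired hearing. Igf2 is expressed from the paternal allele and Igf2r from the maternal one in most mouse tissues.

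Start sites of 9 members, Insr not among them, were matched by symbol to 13 promoter windows of RefSeq on GRCm38.p6. Each window runs from 250 bases before to 50 after a start. The 100 bases just before the start are shown for the 2 ligands and for the 2 binding proteins that differed most between the arrays in opposite directions. Of the 4 windows of Igf2, the one printed holds the most GC boxes. Capitals mark the TATA box letters TATAAA and the GC box letters GGGCGG, searched on both strands.
Igf1, chr10:87861011-87861110, plus strand: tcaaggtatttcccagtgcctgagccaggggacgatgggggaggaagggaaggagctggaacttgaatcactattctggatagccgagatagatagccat
Igf2, chr7:142657497-142657596, minus strand: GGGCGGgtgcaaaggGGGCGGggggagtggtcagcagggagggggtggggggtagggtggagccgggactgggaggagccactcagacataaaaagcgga
Igfbp4, chr11:99041144-99041243, plus strand: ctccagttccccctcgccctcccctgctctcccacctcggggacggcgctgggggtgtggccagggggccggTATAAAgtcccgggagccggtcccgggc
Igfbp5, chr1:72874866-72874965, minus strand: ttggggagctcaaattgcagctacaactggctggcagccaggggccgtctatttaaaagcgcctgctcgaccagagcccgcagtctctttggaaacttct

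Over the full windows, the TATA box letters were found in 1 of the 13 member windows, that of Igfbp4, and in 13.6% of all 32851 windows. The GC box letters were found in 6 of the 13 member windows and in 35.7% of all windows. GC content ran from 49.7% in 1 window of Igf2 to 76.0% in that of Igf1r, with a median of 52.7% over all windows. The windows of Igf1 and Igfbp5, whose ratios between the arrays went in opposite directions, held neither motif.

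The values are MAS5 signals, 1 per probe set, on a linear scale. A floor was set at each array's 40th percentile of signal, 10.4 in EGFP-positive against 12.4 in EGFP-negative cells, and 13363 genes were above it in at least 1 library. Shares of all genes refer to these 13363. Of 27 probe sets for Bacillus transcripts, the highest read 12.3 in EGFP-positive against 9.0 in EGFP-negative cells. Where an EGFP-positive signal is no higher than that, the signals stand in place of a fold. Ratios are given as log2 of EGFP-positive over EGFP-negative after signals below a floor were set to it, and a log2 difference of 1, or 2-fold, is the limit for calling a gene higher. Between probe sets of 1 gene above both floors, the log2 ratio had an SD of 0.31 over 5640 genes, and of 0.25 where the mean signal was above 200. That SD is a partial measure of technical error and leaves out variation between embryos, sorts and hybridisations.

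**Figure D1:**
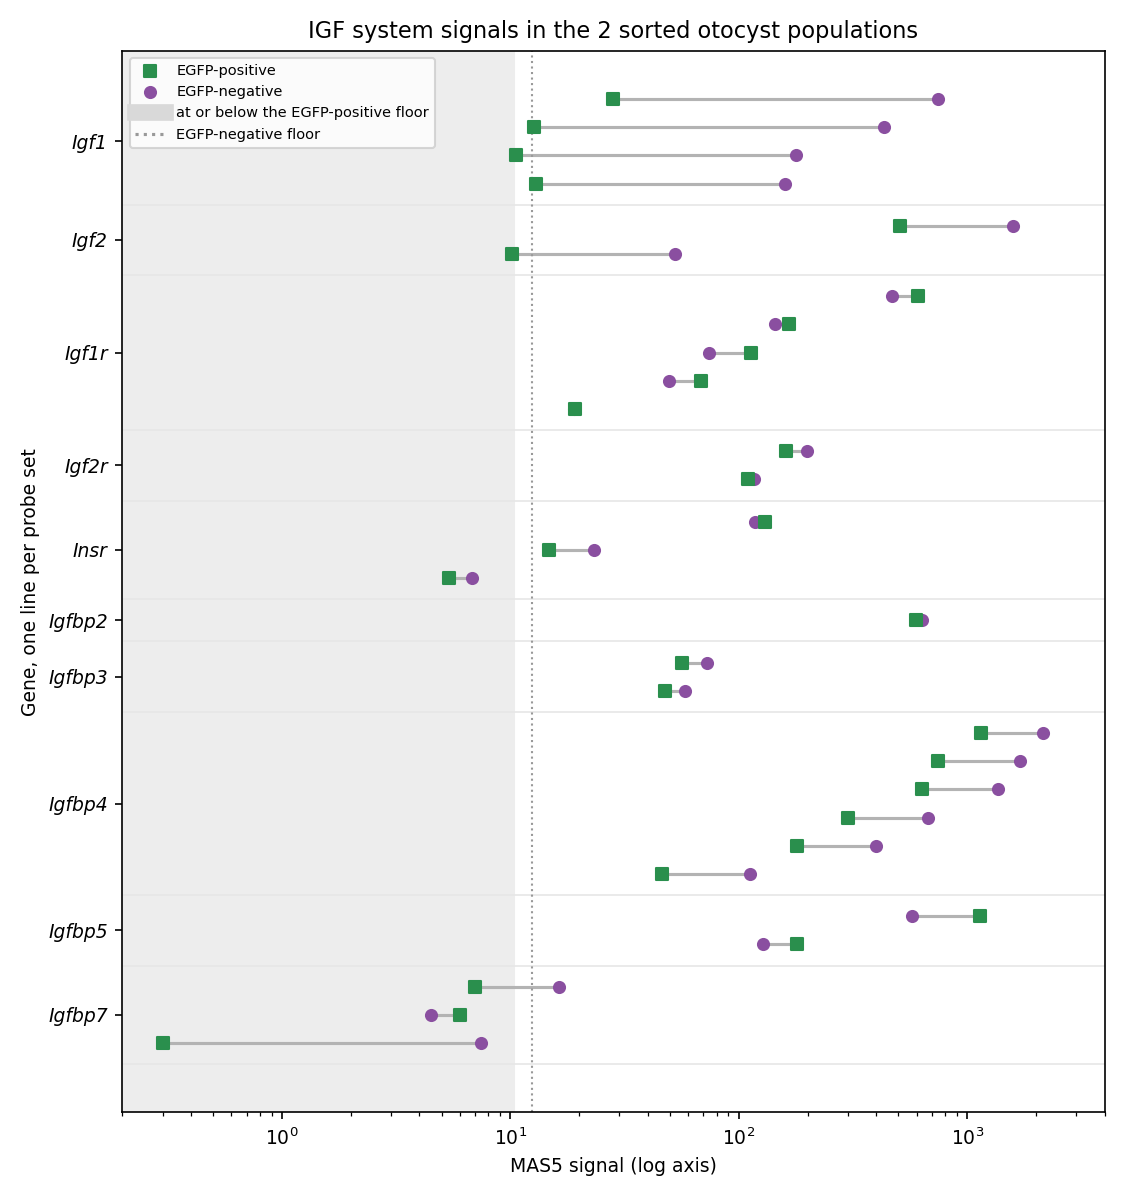
MAS5 signal (log axis) of each of the 30 probe sets of the IGF system, 1 line per probe set and grouped by gene, with green squares for the EGFP-positive and purple circles for the EGFP-negative array. The 4 lines of Igf1 are the longest above the floors, those of Igf2 and Igfbp4 all run towards higher EGFP-negative signals, those of Igfbp5 run the other way, and the circle of 1 Igf1r probe set is hidden behind its square at 19.1 and 19.

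Both ligand genes had higher signals in the EGFP-negative library, while the 3 receptor genes were within 2-fold as scaled by the authors. Of the 10 members, 2 passed 2-fold towards the EGFP-negative library, against 7.63% of all genes, and 0 passed it towards the EGFP-positive library, against 2.90% of all genes. Of the other 8, 7 were above the floor on both arrays and within 2-fold. Igfbp7 was not called, but with its EGFP-positive signal at the floor its log2 ratio of -0.66 is a bound, and a difference of 2-fold or more is not excluded. The median log2 ratio of the members was -0.33, beside 0.0032 over all genes. Over all genes the calls split into 1019 towards the EGFP-negative and 388 towards the EGFP-positive library. Quantile normalization gave 822 and 503, centring on hybridisation control probe sets 1405 and 231, and centring on the markers of otic epithelium 11413 and 18.

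Igf1, which encodes the growth factor IGF1, had the largest difference of the members. Its brightest probe set read 28 in EGFP-positive against 741.6 in EGFP-negative cells, a log2 ratio of -4.73 or 26.5-fold. In rank this was the 15th lowest ratio of 13363 genes. Genes with the EGFP-positive signal at the floor enter this ranking with a bound, so some of them could lie lower than Igf1. Ranks and shares for the other members count such bounds in the same way. The next probe set read 12.7 against 433.9, the third 10.6 against 177.6 and the fourth 13.0 against 158.7. All 4 were thus far above the floor in the EGFP-negative library, and 3 of them were close to it in the other, where the brightest was above that array's median of 17.6. Their log2 ratios ran from -5.09 to -3.61, with an SD of 0.66, and the 4 derive from different source sequences. For the 3 with EGFP-positive signals so near the floor, the size of the ratio is less certain than its direction.

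Igf2, which encodes the main growth factor of the fetus, was far from the floor on both arrays at 1 of its 2 probe sets. Its brighter probe set read 509.9 in EGFP-positive against 1581.7 in EGFP-negative cells, a log2 ratio of -1.63 or 3.10-fold. Of all genes, 3.53% had a lower ratio. The second probe set, from the same source sequence, read 10.2 against 52.5, with the EGFP-positive signal at the floor. Both probe sets of Igf2 thus read higher without EGFP. H19, the imprinted gene near Igf2 on chromosome 7, was not analysed here, and Ins2, the insulin gene on its other side, was at or below the floor in both libraries, at 6.9 and 3.1.

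**Figure D2:**
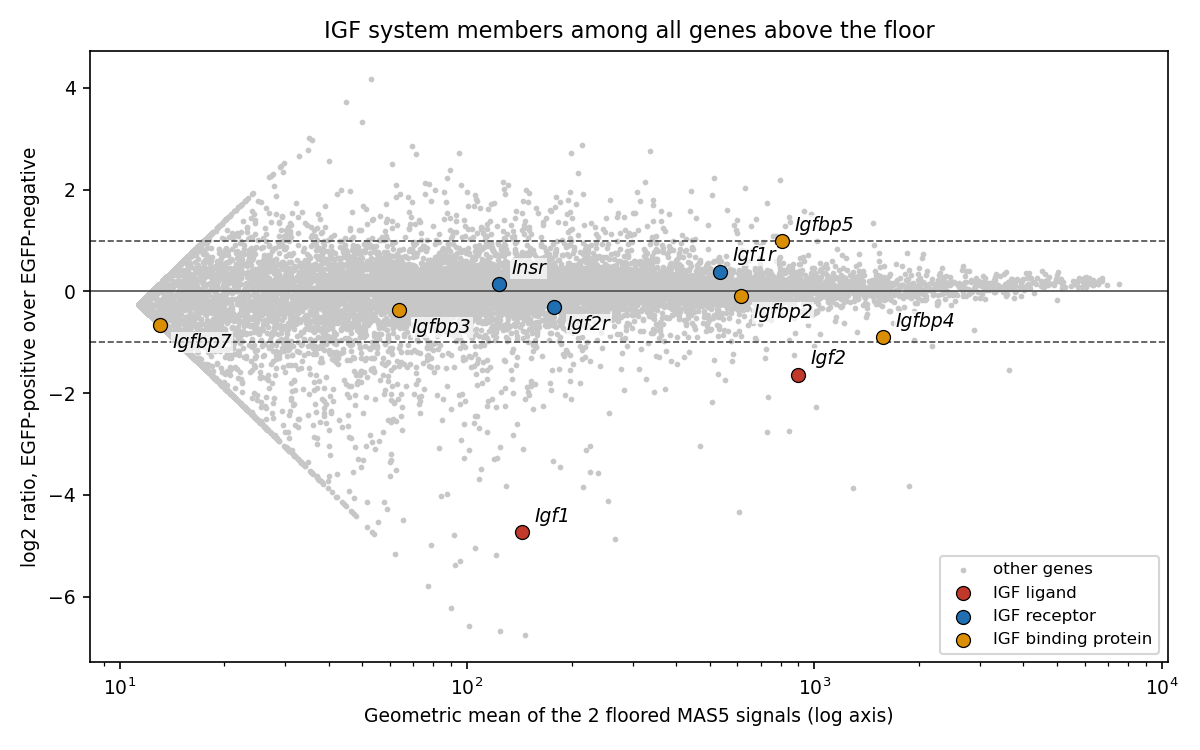
Log2 ratio of EGFP-positive over EGFP-negative (vertical axis) against the geometric mean of the 2 floored MAS5 signals (horizontal log axis) for 13363 genes in grey, with the 10 IGF system members in colour by role and dashed lines at 2-fold. Igf1 at -4.73 and Igf2 at -1.63 lie below the lower line, Igfbp4 at -0.90 and Igfbp5 at 0.99 lie just inside the lines, and the 3 receptors lie near 0.

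The receptor genes were within 2-fold, except that centring on the otic epithelium list gave Igf2r a log2 ratio of -1.69 and Insr one of -1.24. Igf1r, the receptor of both ligands, read 610.6 in EGFP-positive against 466.9 in EGFP-negative cells at its brightest probe set, a log2 ratio of 0.39 or 1.31-fold. The other 4 probe sets read 166.1 against 143.6, 112.7 against 73.9, 68.1 against 49.6 and 19.1 against 19. All 5 were thus level or higher in EGFP-positive cells, from 0.0076 to 0.61, but the log2 ratio of Igf1r was -0.998 after centring on the otic epithelium list. The probe sets at 610.6 and 112.7 in EGFP-positive cells share a source sequence, as do those at 166.1 and 19.1. They are therefore not 5 independent readings. Igf2r, the clearance receptor of IGF2, read 160.9 against 198.2 and 109.8 against 116.4, log2 ratios of -0.30 and -0.08. Insr, the insulin receptor gene, read 129.6 against 117.5 at its brightest probe set, a log2 ratio of 0.14. Its second probe set read 14.7 against 23.3, a log2 ratio of -0.66, and the third was at the floor in both libraries at 5.4 and 6.8. The probe sets of Insr therefore gave no common direction.

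Of the 5 binding protein genes, 4 were within 2-fold by their brightest probe set, with ratios in both directions, and Igfbp7 had only a bound. Igfbp4, whose product holds IGFs away from their receptor until it is cut, read 1152.0 in EGFP-positive against 2149.5 in EGFP-negative cells, a log2 ratio of -0.90 or 1.87-fold. Its other 5 probe sets were each past 2-fold, from 46.3 against 111.8 for the dimmest to 745.6 against 1696.5 for the brightest of them. Over all 6 the mean log2 ratio was -1.13 with an SD of 0.13, and it is this choice of probe set that keeps Igfbp4 inside the 2-fold limit. The 6 probe sets come in pairs from shared source sequences, so they are not 6 independent readings.

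Igfbp5, which encodes a matrix-bound binding protein, went the other way. It read 1136.9 in EGFP-positive against 574.0 in EGFP-negative cells, a log2 ratio of 0.99 or 1.98-fold, just under the limit. Of all genes, 2.96% had a higher ratio. Its second probe set read 179.5 against 127.9, a log2 ratio of 0.49. Both probe sets were higher in EGFP-positive cells, but the log2 ratio was -0.40 after centring on the otic epithelium list. Igfbp5 was the highest of the members in log2 ratio in all 8 alternative settings as well. Among these, the 3 centrings shift every ratio alike and cannot change that order.

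Igfbp2, the protein-coding neighbour of Igfbp5 on chromosome 1 and a binding protein with an integrin-binding motif, was nearly level. Its single probe set read 597.0 in EGFP-positive against 630.8 in EGFP-negative cells, a log2 ratio of -0.08. The adjacent genes Igfbp2 and Igfbp5 were thus both well above the floors, and of the pair Igfbp5 differed by close to 2-fold. Igfbp3, the main IGF carrier of serum, read 56.4 against 72.5 and 47.3 against 58.4, log2 ratios of -0.36 and -0.30. Igfbp7, a low-affinity relative also made by endothelium, was at or near the floor. Its probe sets read 7.0 against 16.4, 6.0 against 4.5 and 0.3 against 7.4, so that only 1 EGFP-negative signal lay above its floor. That probe set passed 2-fold with the floor at the 20th percentile (-1.23).

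Of the 30 probe sets, 27 were above the floor in at least 1 library. Of these 27, 11 passed 2-fold towards the EGFP-negative library, against 6.63% of all probe sets naming 1 gene, and 0 passed it the other way, against 2.54%. The 11 belong to 3 genes, with 4 of Igf1, 2 of Igf2 and 5 of Igfbp4, so they are repeated readings of few transcripts.

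Other genes of the pathway were read from a list of 50, of which 41 had a probe set and 37 were above the floor in at least 1 library. Of the 37, 1 passed 2-fold towards the EGFP-negative and 3 towards the EGFP-positive library, against the same 7.63% and 2.90% of all genes, and 33 were not called. The median log2 ratio was -0.02. The PI3K, AKT and mTOR arm held none of the 4 called genes, with 17 measured genes between -0.49 and 0.33. In it, the growth regulator gene Rheb read 1264.5 in EGFP-positive against 1380.4 in EGFP-negative cells, the translation repressor gene Eif4ebp1 416.0 against 585.2, and the kinase gene Gsk3b 434.9 against 459.6. The 4 measured genes of the RAS and MAPK arm were between -0.03 and 0.34, with Map2k1 at 732.7 against 576.9, Nras at 457.1 against 467.4 and Map2k2 at 399.0 against 400.7. The core of both signalling routes was thus within 2-fold in these 2 libraries.

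Among receptor adaptors, the 3 brightest of 9 were nearly level at their brightest probe sets, and 2 of the others passed 2-fold in opposite directions. Grb10, an imprinted inhibitor of IGF and insulin receptors, read 3258.5 in EGFP-positive against 3066.8 in EGFP-negative cells. The other probe sets of Grb10 went the other way, at 463.4 against 642.2 and 157.4 against 233.1, log2 ratios of -0.47 and -0.57. Irs1, the substrate that links the receptors to PI3K, read 519.5 against 639.9, and the docking protein gene Gab1 433.0 against 382.2. Grb14, a relative of Grb10 that inhibits the insulin receptor, read 147.4 against 39.1, a log2 ratio of 1.91 or 3.77-fold. The second probe set of Grb14 was at the floor in both libraries. Irs4, another receptor substrate, read 35.4 against 102.7, a log2 ratio of -1.54 or 2.90-fold lower, and its second probe set read 12.2 against 17.6.

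Proteases that cut the binding proteins, and their inhibitors, all had signals under 50 in both libraries. Pappa, which encodes the protease that cuts IGFBP4, read 20 in EGFP-positive against 35.4 in EGFP-negative cells, a log2 ratio of -0.82. The second probe set of Pappa read 11.4 against 26.5, and the third was at the floor in both libraries. Pappa2, a related protease gene, read 25.8 against 29.3. The stanniocalcin genes Stc1 and Stc2, whose products inhibit these proteases, read 46.3 against 20.8 and 36.3 against 16.5, which is 2.23-fold and 2.20-fold higher with EGFP. Another probe set of Stc2 read 10.4 against 19.4, in the opposite direction. The second probe set of Stc1 and the third of Stc2 were at the floor in both libraries. Of the other ligands, receptors and binding proteins, Igfbpl1 read 45.6 against 41.9 and Insrr 11.3 against 5.7, while Igfbp1, Igfbp6, Igfals and Ins2 were at the floor in both libraries.

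**Figure D3:**
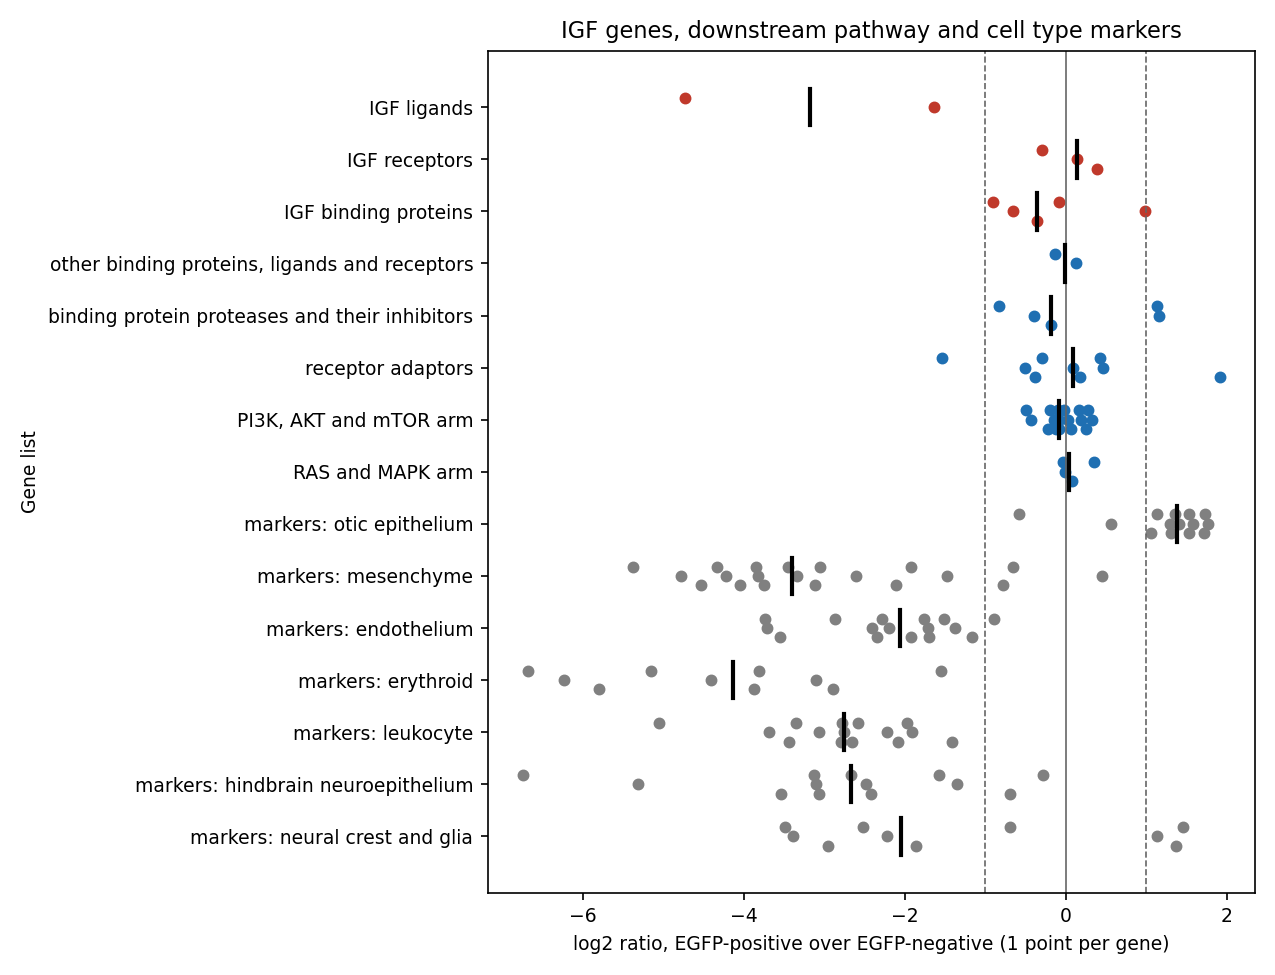
Log2 ratio of EGFP-positive over EGFP-negative for each gene above the floor in at least 1 library (1 point per gene), by list, with a black bar at the list median and dashed lines at 2-fold. The IGF ligands, at -4.73 and -1.63, lie in the ranges of the mesenchyme, erythroid, leukocyte and hindbrain markers alike, whereas receptors and both signalling arms lie within 2-fold and otic epithelium markers have a median of 1.39.

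Markers of other cell types moved with the ligands, although the labels call the sorted cells epithelial. Of 20 mesenchyme markers, 17 passed 2-fold towards the EGFP-negative library and 0 the other way, with a median log2 ratio of -3.40 and a range from -5.37 to 0.45. Their summed signal was 798.2 in EGFP-positive against 8665.2 in EGFP-negative cells. At the floor were 6 of the 20 in the first library, down to a signal of 1 for Col1a1, and 0 in the second. The brightest were Col3a1 (135.5 against 2733.0), Col1a2 (56.8 against 817.9) and Snai2 (144.7 against 550.8). Endothelial markers passed 2-fold in 15 of 16 cases, erythroid in 10 of 10, leukocyte in 15 of 15 and hindbrain in 11 of 13. All these passed towards the EGFP-negative library, as did 7.63% of all genes. These lists held 16, 12, 16 and 15 markers, and those at both floors or without a probe set were not counted. In the same order, 11, 6, 11 and 13 markers were at the floor in the EGFP-positive library, and 0, 0, 1 and 2 in the other. Many of these ratios are thus bounds, and the summed EGFP-positive signals include signals at or below the floor. Summed signals of these lists, in the same order, were 159.5 against 1106.3, 3007 against 21569, 114.3 against 1693.0 and 65.6 against 2793.4. Of 10 neural crest and glia markers, from 12 listed, 6 passed 2-fold towards the EGFP-negative and 3 towards the EGFP-positive library. Among the 3 was Sox10, also an otic gene, and the summed signals of the list were 2703.8 against 1934.0. Otic epithelium markers passed 2-fold towards the EGFP-positive library in 12 of 14 cases, from 16 listed, against 2.90% of all genes. Their summed signals were 12698 against 5879. The defining otic epithelial genes were present in both libraries, with Eya1 at 1664.7 against 578.3 and Epcam at 1609.9 against 538.6, while the otoconial gene Oc90 read 939.8 against 1405.7. The part of these other cells in the ligand, Igfbp4 and Irs4 values was not tested, and in sorted pools fewer cells of a type and less RNA per cell cannot be told apart.

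**Figure D4:**
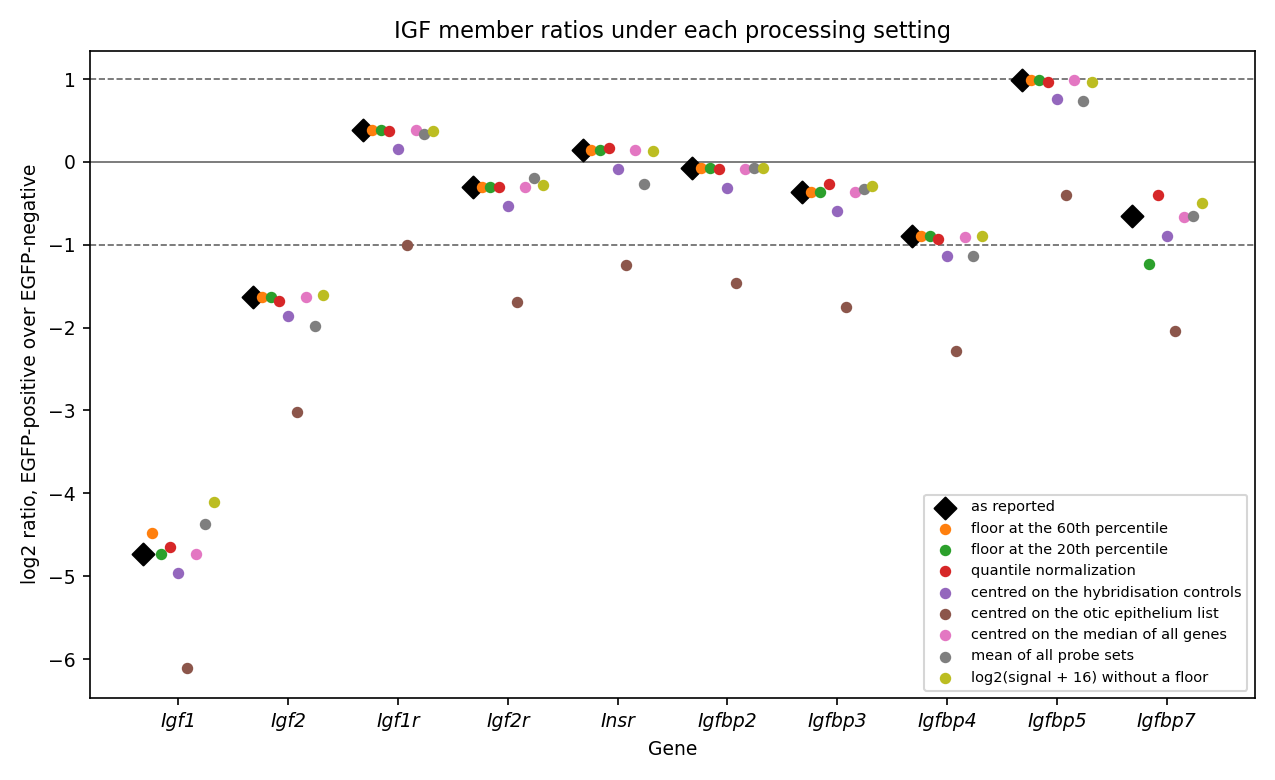
Log2 ratio of EGFP-positive over EGFP-negative for each member gene as reported (black diamonds) and under 8 alternative processing settings (coloured circles; 7 for Igfbp7, which was under both floors at the 60th percentile), with dashed lines at 2-fold. Igf1 stays between -6.11 and -4.11 and Igf2 between -3.02 and -1.60, whereas centring on the otic epithelium list moves all 10 members below 0.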

How the data were processed

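RNA of EGFP-positive and EGFP-negative otocyst cells was hybridised to 1 Affymetrix array each. The deposited values are intensities, 1 signal per probe set, made with MAS5 version 5.0 per the submitters' processing notes. The mean after trimming 2% of values at each end was 100.0 in both columns, so the authors' scaling brought the arrays to a common level. The scaling target and detection calls were not used here. Probe sets were named from the platform annotation and RefSeq symbols of GRCm38.p6, of which 34958 named 1 gene, 932 several and 9211 none. The probe set with the highest mean signal represented a gene. One probe set naming Igf2r with another gene was not used.

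Floors, ratios and the 2-fold limit were computed in Python 3.11.15 with pandas 2.3.3 and tested on simulated data. The number of arrays limits the precision. The text names all members, pathway genes past 2-fold with up to 3 bright genes per role, and up to 3 bright markers per list. The members and lists were chosen with earlier results of these data known. A pattern over 2 arrays is 1 ratio, so no genes of like pattern are named. Alternatives were 2 other floors, quantile normalization, 3 centrings, the mean of all probe sets, and log2(signal + 16) without a floor.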

Additional observations from a re-analysis of the deposited data

How the results depend on the processing

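Igf1 and Igf2 passed 2-fold towards the EGFP-negative library in all 8 alternative settings, with log2 ratios from -6.11 to -4.11 and from -3.02 to -1.60. Igfbp4 joined them when its probe sets were averaged (-1.13) and after centring on hybridisation controls (-1.13), and Igfbp7 with the floor at the 20th percentile (-1.23). No member was 2-fold higher in EGFP-positive cells in any of the 8. Insr fell below 0 when probe sets were averaged (-0.26) and after centring on hybridisation controls (-0.09). Centring on the otic epithelium list shifted the median of all genes by -1.39, to which every ratio under it is relative. It put 8 members, 32 pathway genes and 85.4% of all genes past 2-fold in that direction, and 0 pathway genes past it in the other. Centring on hybridisation controls shifted that median by -0.23. The count of pathway genes higher in EGFP-positive cells fell to 1, Grb14, with the floor at the 60th percentile, with log2(signal + 16), and after centring on hybridisation controls. When probe sets were averaged, that count fell to 2, Stc1 and Grb14. The count higher in EGFP-negative cells rose to 2, with Pappa joining Irs4, after centring on hybridisation controls and with that averaging. No paired analysis was possible because each population has 1 array. Signals near the floor limit 3 of the 4 Igf1 probe sets in EGFP-positive cells and Igfbp7 in both, and Igfbp7 has no value with the floor at the 60th percentile.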
